A study of Homo sapiens with 12 samples.

Results

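SR proteins and hnRNPs are the RNA-binding proteins that choose splice sites, and CLK and SRPK kinases phosphorylate the SR proteins. Their mRNAs were followed here in A673 cells, an Ewing sarcoma line, through array probe sets whose only annotated symbol starts with SRSF or HNRNP, or is CLK1 to CLK4, SRPK1, SRPK2, TRA2A, TRA2B or RSRP1. Where a gene had several such probe sets, the one with the highest mean over all arrays was used. The rule gave 41 of the 18404 genes on the table: 4 CLK kinases, 2 SRPK kinases, RSRP1, 14 SR genes (SRSF1 to SRSF12 with TRA2A and TRA2B) and 20 hnRNP genes, 1 of them the pseudogene HNRNPA3P1. HNRNPC, HNRNPA3, HNRNPUL2 and HNRNPH2 are matched only by probe sets that carry other symbols as well, and were not analysed here.

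All 12 arrays held RNA of A673 cells, in which a translocation joins EWSR1 to FLI1, a transcription factor of the ETS family, and each of 6 groups had 2 arrays. The drug groups were 5 nM and 50 nM actinomycin D for 24 h, with DMSO for 24 h as vehicle and untreated cells at time 0. The knock-down groups were FLI1 shRNA, which targets the fusion through its FLI1 part, and lacZ shRNA, which targets a bacterial gene, both labelled 48 h. A single shRNA was used against each target, in puromycin-selected cells of 1 line. Actinomycin D intercalates in DNA and blocks transcription, and the series asked how far a low dose acts like loss of the fusion protein. Values are log2 signals from Affymetrix Gene ST arrays after RMA, a method that puts all arrays on a common distribution, so a change is relative to the other genes of the array.

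SR proteins bind exonic enhancers through RNA recognition motifs and recruit the spliceosome through domains rich in arginine and serine, whereas hnRNPs often oppose them by masking splice sites. SRPKs phosphorylate these domains in the cytoplasm, which lets SR proteins enter the nucleus. CLKs phosphorylate them further in the nucleus and release them from storage in nuclear speckles, and many mRNAs of both protein families carry poison exons through which the proteins limit their own levels.

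Array medians lay between 6.67 and 6.83, and the arrays of a group correlated at 0.994 to 0.996. Of the Ewing sarcoma markers, 7 of 8 measured lay above the all-gene median of 7.45, among them CD99 at a mean of 12.13. The epithelial keratin KRT18 averaged 11.12, and 3 of 8 epithelial, 1 of 7 blood and 0 of 6 endothelial markers lay above that median. FLI1 itself read 7.3 and 7.08 after FLI1 shRNA, against 8.63 and 8.45 after lacZ shRNA, a fall to 39.2% (log2 change −1.35 ± 0.09, adjusted p = 5.4e-06). A gene is said to have risen or fallen at an adjusted p under 0.05 (limma, Benjamini-Hochberg over all 18404 genes), every ± is a standard error, and 2 arrays per group limit the precision. Between DMSO and untreated cells 0 of the 41 genes passed, with changes of −0.25 to 0.28, and an unadjusted p under 0.05 was reached by 2 higher and 1 lower genes. Over all genes 0.00543% were higher and 0 lower at the adjusted threshold.

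At 5 nM actinomycin D the set split: 11 genes rose, 15 fell and 15 did not pass, with log2 changes against DMSO of −2.08 to 2.89. Over all genes, 30.3% rose and 23.0% fell, beside 26.8% and 36.6% of the 41. Their median change was −0.12, against 0.119 over all genes. At 50 nM, 4 rose, 18 fell and 19 did not pass (9.8% and 43.9%, with 25.8% of all genes higher and 23.3% lower), and the median was −0.17, against 0.098. With a fold over 2 and an adjusted p under 0.01, the thresholds of the study, 5 nM moved 3 genes up and 4 down (2.64% and 7.86% of all genes), and 50 nM moved 1 up and 1 down (0.598% and 5.38%). Most of the 41 lay above a mean of 6.82, the 40th percentile of all genes. In a fit of the 11042 genes at or above it, 38.2% rose and 36% fell at 5 nM at an adjusted p under 0.05. At 50 nM these shares were 29.7% and 37.2%. Levels here are relative: when arrays were centred on 58 ribosomal protein genes, every change moved by −0.36 at 5 nM and −0.26 at 50 nM, and the median of all genes became −0.24 and −0.16. Before centring, 41 of these 58 genes rose and 0 fell at 5 nM (70.7%), and 31 rose and 0 fell at 50 nM (53.4%). The centring is thus not a neutral reference. With it, 5 of the 41 genes of the set rose and 29 fell at 5 nM (9.02% and 45.1% of all genes), and 1 rose and 29 fell at 50 nM (5.24% and 38.4% of all genes).

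**Figure D1:**
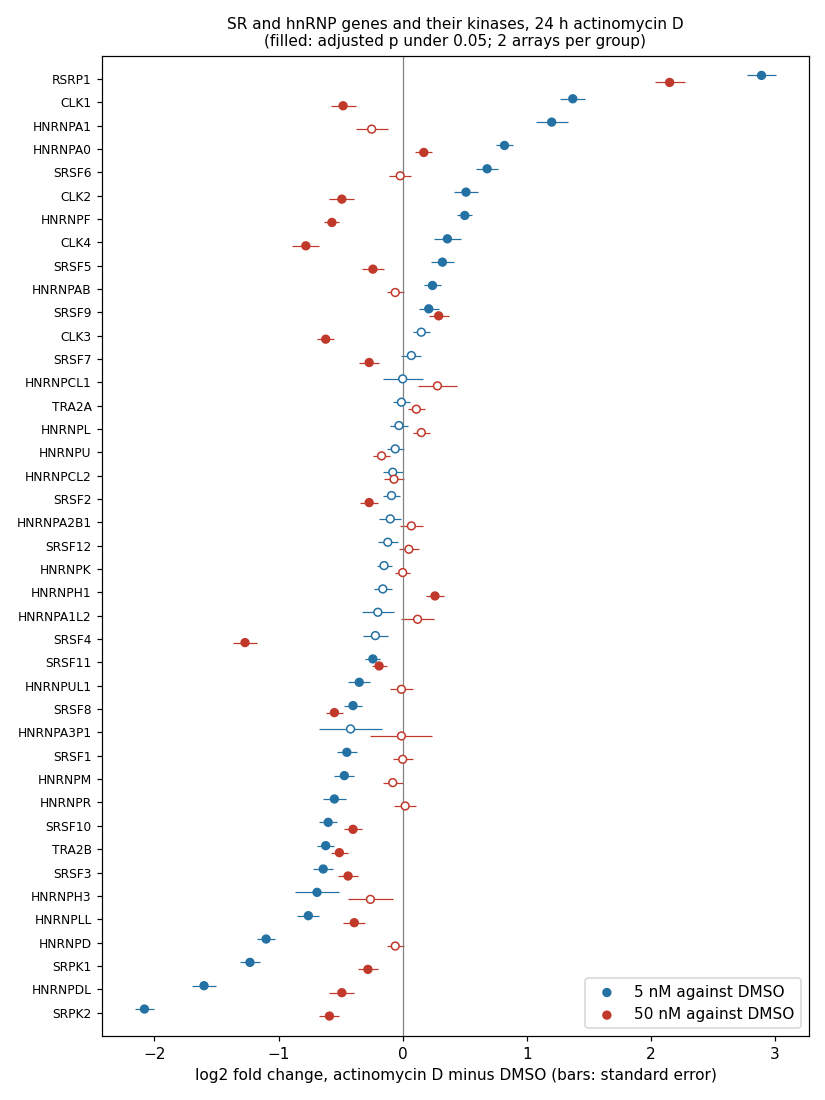
Log2 change of each of the 41 genes at 5 nM (blue) and 50 nM (red) actinomycin D against DMSO, with standard errors, ordered by the change at 5 nM. Filled points have an adjusted p under 0.05. RSRP1 lies far to the right at both doses, and the CLK kinases lie right of 0 at 5 nM (CLK3 and CLK4 only without ribosomal protein centring) and left of it at 50 nM.

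CLK1, CLK2 and CLK4 rose at 5 nM and all 4 CLKs fell at 50 nM, although the 5 nM changes of CLK2 and CLK4 did not pass with ribosomal protein centring and CLK3 then fell. CLK1, the most studied of the family, read 8.91 and 8.7 in DMSO, 10.24 and 10.11 at 5 nM and 8.35 and 8.31 at 50 nM. It rose to 258.7% of DMSO at 5 nM (1.37 ± 0.10, adjusted p = 1.1e-06) and fell to 71.8% at 50 nM (−0.48 ± 0.10, adjusted p = 0.0035). All 5 nM arrays lay above both DMSO arrays, and all 50 nM arrays below them. CLK2 read 10.09 and 9.87 in DMSO, 10.51 and 10.47 at 5 nM and 9.48 and 9.5 at 50 nM, and CLK4 read 7.39 and 7.14, then 7.67 and 7.58, then 6.49 and 6.47. Both followed the order of CLK1, with smaller rises at 5 nM (0.51 ± 0.10, adjusted p = 9.7e-04 for CLK2, and 0.36 ± 0.11, adjusted p = 0.021 for CLK4). CLK3 read 7.91 and 7.94 in DMSO, 8.12 and 8.02 at 5 nM and 7.3 and 7.3 at 50 nM, a change of 0.15 ± 0.07 (adjusted p = 0.091) at the low dose and a fall by 0.62 at the high dose (adjusted p = 3.7e-05). The falls at 50 nM were 0.49 for CLK2 (adjusted p = 0.0018) and 0.78 for CLK4 (adjusted p = 2.4e-04), and the mean over both CLK4 probe sets gave −0.30 (adjusted p = 0.08). The direct comparison of 50 nM with 5 nM gave log2 changes of −1.85 for CLK1, −1.14 for CLK4, −1.0 for CLK2 and −0.77 for CLK3, all past the test.

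The rise of CLK1 at 5 nM stayed under every alternative run, and the smaller ones did not: with ribosomal protein centring CLK2 changed by 0.15 (adjusted p = 0.18), CLK4 by 0.00 (adjusted p = 0.99) and CLK3 by −0.21 (adjusted p = 0.021). CLK4 also failed to pass without DMSO replicate 2 (0.23, adjusted p = 0.17) or 5 nM replicate 1 (0.31, adjusted p = 0.091). Its second probe set, dimmer at a mean of 6.16, changed by 0.04 ± 0.18 at 5 nM and 0.19 ± 0.18 at 50 nM, neither passing.

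Both SRPK kinases fell at both doses, and further at the lower one. SRPK2, which is rich in brain, read 9.48 and 9.44 in DMSO, 7.46 and 7.28 at 5 nM and 8.92 and 8.82 at 50 nM. It fell to 23.6% of DMSO at 5 nM (−2.08 ± 0.08, adjusted p = 1.2e-08), the largest fall of the 41, and to 66.6% at 50 nM (−0.59 ± 0.08, adjusted p = 1.7e-04). SRPK1, the widely expressed family member, read 10.85 and 10.91 in DMSO, 9.71 and 9.6 at 5 nM and 10.61 and 10.59 at 50 nM. It fell to 42.8% at 5 nM (−1.23 ± 0.08, adjusted p = 2.4e-07) and to 82.6% at 50 nM (−0.28 ± 0.08, adjusted p = 0.012). For both kinases the 5 nM arrays were lowest, the DMSO arrays highest and the 50 nM arrays between them. The higher dose gave the higher signal in the direct comparison, by 1.5 ± 0.08 for SRPK2 (adjusted p = 9.5e-08) and 0.95 ± 0.08 for SRPK1 (adjusted p = 1.5e-06). The 50 nM fall of SRPK1 did not pass without DMSO replicate 2 (adjusted p = 0.067) or 50 nM replicate 2 (adjusted p = 0.055), nor with the trend in gene span removed (−0.09, adjusted p = 0.35).

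RSRP1, arginine and serine rich protein 1, gave the largest rise of the set at both doses. It read 7.44 and 7.59 in untreated cells, 7.62 and 7.2 in DMSO, 10.34 and 10.25 at 5 nM and 9.6 and 9.52 at 50 nM. All drug arrays lay above all arrays of the other 4 groups. The signal was 7.39-fold that of DMSO at 5 nM (2.89 ± 0.12, adjusted p = 1.9e-08) and 4.44-fold at 50 nM (2.15 ± 0.12, adjusted p = 3.5e-07), and 50 nM lay below 5 nM by 0.74 ± 0.12 on the log2 scale (adjusted p = 4.6e-04). With ribosomal protein centring the changes were 2.53 and 1.89. The RefSeq gene overlaps RHD, and whether its probes lie in the shared stretch was not analysed here.

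The 250 bases before the start of RSRP1 and of CLK1, which rose most among the genes with a given promoter, are shown as RefSeq has them on GRCh38.p14. Both lie on the minus strand, at chr1:25338255-25338504 for RSRP1 and chr2:200864659-200864908 for CLK1. For RSRP1 the promoter table holds 1 window, before the outer end of a gene that spans 96.0 kb with the overlap of RHD. Whether the measured RSRP1 transcripts start there was not analysed here. Capitals mark the GC box GGGCGG or its reverse complement CCGCCC.
RSRP1: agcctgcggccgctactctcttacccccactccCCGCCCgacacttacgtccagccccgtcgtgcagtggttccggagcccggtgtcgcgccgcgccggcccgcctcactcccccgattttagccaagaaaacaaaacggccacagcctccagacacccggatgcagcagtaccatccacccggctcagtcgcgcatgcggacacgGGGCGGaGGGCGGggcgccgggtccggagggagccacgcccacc
CLK1: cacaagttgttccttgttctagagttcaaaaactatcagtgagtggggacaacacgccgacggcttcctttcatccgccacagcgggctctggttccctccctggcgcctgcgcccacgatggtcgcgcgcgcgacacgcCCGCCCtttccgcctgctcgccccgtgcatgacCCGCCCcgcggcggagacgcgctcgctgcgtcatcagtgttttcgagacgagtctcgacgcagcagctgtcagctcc

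The RSRP1 window was 70.4% G or C with 29 CG dinucleotides and 3 GC boxes, and the CLK1 window was 64.4% G or C with 30 CG dinucleotides and 2 GC boxes. GGGCGG on either strand stood in 25 of the 37 members with a window, among them all 4 CLKs and both SRPKs, and in 46.2% of 27305 genes. ATGCAT, an arrangement around the GpC step at which actinomycin D binds DNA, stood in the windows of HNRNPCL2 and SRSF7 alone among the 37 and in 4.3% of genes. HNRNPA3P1, SRSF2, HNRNPA1 and TRA2A had no matched window.

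Of the 14 SR genes, 3 rose and 6 fell at 5 nM (21.4% and 42.9%, beside 30.3% and 23.0% of all genes). At 50 nM 1 rose and 9 fell (7.1% and 64.3%, beside 25.8% and 23.3%). The medians were −0.17 and −0.25. SRSF6, a regulator of alternative exons that is close in sequence to SRSF4 and SRSF5, led the rises. It read 11.11 and 10.9 in DMSO, 11.66 and 11.73 at 5 nM and 10.99 and 10.98 at 50 nM, a change of 0.68 ± 0.09 at 5 nM (adjusted p = 6.9e-05, and 0.32 with ribosomal protein centring or 0.34 with the span trend removed, both still passing) and of −0.02 ± 0.09 at 50 nM (adjusted p = 0.86). SRSF4 read 9.39 and 9.69 in DMSO, 9.39 and 9.25 at 5 nM and 8.27 and 8.28 at 50 nM. It fell to 41.6% of DMSO at 50 nM (−1.27 ± 0.10, adjusted p = 3.1e-06), the largest fall of the set at that dose, while the 5 nM change was −0.22 ± 0.10 (adjusted p = 0.091). With ribosomal protein centring the 5 nM change of SRSF4 was −0.58 and the 50 nM change of SRSF6 was −0.28, and both passed. SRSF5, the third of these relatives, changed by 0.32 ± 0.09 at 5 nM (adjusted p = 0.010, but −0.04 with ribosomal protein centring) and by −0.24 ± 0.09 at 50 nM (adjusted p = 0.041). All 3 were lower at 50 nM than at 5 nM, by 1.05 for SRSF4, 0.70 for SRSF6 and 0.55 for SRSF5.

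A further group of SR genes fell at both doses. SRSF3, a small SR protein that also serves mRNA export, read 11.22 and 11.12 in DMSO, 10.58 and 10.48 at 5 nM and 10.7 and 10.75 at 50 nM. Its fall was 0.64 at 5 nM (SE 0.08, adjusted p = 4.4e-05) and 0.44 at 50 nM (adjusted p = 9.2e-04). SRSF10, which represses splicing when it is dephosphorylated, fell to 66.0% and 76.0% of DMSO at 5 nM and 50 nM, and SRSF8 fell to 75.5% and 68.1%. A second SRSF10 probe set, dimmer at a mean of 6.42, changed by −0.63 ± 0.15 at 5 nM (adjusted p = 0.0099, over all array rows). At 50 nM that probe set changed by −0.32 ± 0.15 and did not pass (adjusted p = 0.13). SRSF11 fell to 84.6% and 87.6%. For SRSF3, SRSF8 and SRSF11 the 2 doses did not differ past the threshold (50 nM minus 5 nM 0.19 ± 0.08, −0.15 ± 0.07 and 0.05 ± 0.06), and SRSF10 was higher at 50 nM by 0.20 ± 0.07 (adjusted p = 0.043). The second SRSF10 probe set gave 0.32 ± 0.15 there and did not pass (adjusted p = 0.16, over all array rows). SRSF1, the first SR protein described and a partner of HNRNPA1 in splice site choice, passed at 5 nM (−0.45 ± 0.08, adjusted p = 8.2e-04) and not at 50 nM: it read 12.13 and 11.92 in DMSO, 11.55 and 11.59 at 5 nM and 11.98 and 12.05 at 50 nM. The 50 nM arrays of SRSF1 lay within the range of DMSO, and the direct comparison put 50 nM above 5 nM by 0.45 ± 0.08 (adjusted p = 9.0e-04). With ribosomal protein centring the 50 nM change of SRSF1 was −0.26 and passed. SRSF2, a speckle protein, and SRSF7 each changed by −0.27 at 50 nM (adjusted p = 0.012 and 0.021), and by −0.09 ± 0.07 and 0.07 ± 0.08 at 5 nM. SRSF9 rose at both doses, by 0.21 ± 0.08 at 5 nM (adjusted p = 0.048) and 0.29 ± 0.08 at 50 nM (adjusted p = 0.014), but with ribosomal protein centring changed by −0.15 and 0.03, and at 50 nM missed the threshold without DMSO replicate 1 (adjusted p = 0.07) or 50 nM replicate 2 (adjusted p = 0.077). SRSF12, an SR protein that represses splicing, passed at neither dose. With ribosomal protein centring SRSF2, SRSF7 and SRSF12 fell at 5 nM (−0.45, −0.29 and −0.48). They also fell there with the span trend removed (−0.42, −0.25 and −0.3).

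TRA2B and TRA2A, the human forms of the Drosophila sex-determination factor transformer 2, bind GA-rich exonic enhancers. TRA2B read 11.87 and 11.81 in DMSO, 11.17 and 11.26 at 5 nM and 11.31 and 11.35 at 50 nM, and fell by 0.62 at 5 nM (adjusted p = 1.6e-05) and 0.51 at 50 nM (adjusted p = 1.2e-04). The TRA2A probe set with the higher mean read 11.18 and 11.26 in DMSO, 11.28 and 11.15 at 5 nM and 11.35 and 11.3 at 50 nM, with changes of −0.01 ± 0.07 and 0.11 ± 0.07 that did not pass. With ribosomal protein centring its 5 nM change was −0.37 and passed. A second TRA2A probe set, with a mean of 8.5 and a single annotated cDNA, read 8.04 and 7.77 in DMSO, 9.49 and 9.37 at 5 nM and 9.5 and 9.74 at 50 nM. It was higher than DMSO by 1.52 ± 0.11 at 5 nM and 1.71 ± 0.11 at 50 nM (adjusted p = 8.6e-06 and 8.7e-06, over all array rows), and its drug arrays stood above those of all other groups. Which part of the transcripts each covers was not analysed here. After FLI1 shRNA the second probe set changed by −0.26 ± 0.11, which did not pass.

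**Figure D2:**
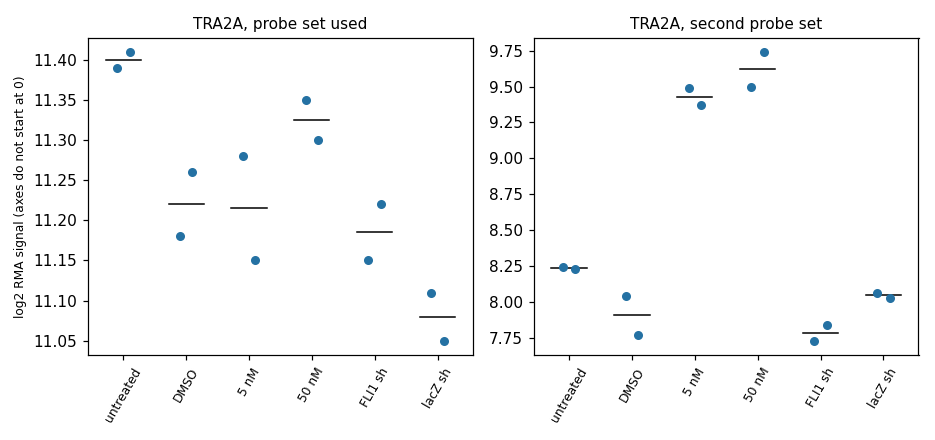
Log2 RMA signal of both single-symbol probe sets of TRA2A on every array (points) with group means (lines), on separate axes that do not start at 0. The probe set used for the gene spans 11.05 to 11.41 over all arrays, while the second lies between 9.37 and 9.74 on the 4 drug arrays and between 7.73 and 8.24 on the others.

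Of the 20 hnRNP genes, 4 rose and 7 fell at 5 nM (20.0% and 35.0%, beside 30.3% and 23.0% of all genes). At 50 nM 2 rose and 3 fell (10.0% and 15.0%, beside 25.8% and 23.3%). The medians were −0.15 and −0.03. The largest falls at 5 nM came from a pair of related genes that lie next to each other among protein-coding genes in RefSeq. HNRNPDL read 9.78 and 10.03 in DMSO, 8.41 and 8.2 at 5 nM and 9.47 and 9.36 at 50 nM. HNRNPD, also called AUF1, which binds AU-rich elements and speeds mRNA decay, read 11.81 and 11.91 in DMSO, 10.72 and 10.8 at 5 nM and 11.84 and 11.76 at 50 nM. At 5 nM HNRNPDL fell to 32.9% of DMSO (−1.60 ± 0.10, adjusted p = 2.2e-07) and HNRNPD to 46.7% (−1.10 ± 0.07, adjusted p = 3.0e-07). At 50 nM HNRNPDL stood at 71.3% (adjusted p = 0.0021) and HNRNPD at 96.2% (adjusted p = 0.52), and both were over 2-fold higher at 50 nM than at 5 nM. HNRNPLL, a regulator of CD45 splicing in T cells, fell to 59.2% at 5 nM and 76.6% at 50 nM. HNRNPR, HNRNPM and HNRNPUL1 fell at 5 nM to 68.2%, 72.1% and 78.6% and did not pass at 50 nM. With ribosomal protein centring HNRNPD, HNRNPM and HNRNPR fell at 50 nM (−0.32, −0.34 and −0.24), and HNRNPUL1 did not pass. HNRNPH3 fell to 61.9% at 5 nM, with DMSO arrays as far apart as 9.84 and 10.54.

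HNRNPA1, which antagonises SRSF1 in splice site choice, led the hnRNP rises. Its probe set read 6.81 and 6.45 in DMSO, 7.84 and 7.82 at 5 nM and 6.2 and 6.54 at 50 nM, a rise to 230.0% of DMSO at 5 nM (1.20 ± 0.13, adjusted p = 2.0e-05) and a change of −0.25 ± 0.13 at 50 nM (adjusted p = 0.13). The 50 nM change passed as a fall with ribosomal protein centring (−0.51), a further quantile normalization (−0.38) or the span trend removed (−0.39). HNRNPA1 has near-identical copies, and 4 further probe sets name it together with them and were not used, so these low values stand for 1 dim probe set and not for all HNRNPA1 mRNA. HNRNPA0, a relative that binds AU-rich elements, read 10.26 and 10.17 in DMSO, 11.02 and 11.04 at 5 nM and 10.39 and 10.39 at 50 nM, and rose to 176.2% at 5 nM (0.82 ± 0.07, adjusted p = 1.6e-06). At 50 nM its 0.17 ± 0.07 (adjusted p = 0.047) became −0.09 with ribosomal protein centring and missed the threshold whichever of the 4 arrays was left out. HNRNPF, which binds runs of G, followed the CLKs: it read 10.28 and 10.27 in DMSO, 10.76 and 10.8 at 5 nM and 9.7 and 9.72 at 50 nM, up by 0.50 ± 0.06 at 5 nM (adjusted p = 5.1e-05, but 0.14 and not passing with ribosomal protein centring) and down by 0.57 at 50 nM (adjusted p = 3.7e-05). HNRNPH1, its close relative, changed by −0.16 ± 0.07 at 5 nM (adjusted p = 0.095, but −0.52 and passing with ribosomal protein centring). At 50 nM HNRNPH1 rose by 0.26 ± 0.07 (adjusted p = 0.016, but a change of 0.00 with ribosomal protein centring). That rise missed the threshold without DMSO replicate 2 (adjusted p = 0.11) or 50 nM replicate 2 (adjusted p = 0.088). HNRNPK, HNRNPA2B1, HNRNPL and HNRNPU passed at neither dose, with changes between −0.17 and 0.15. With ribosomal protein centring all 4 fell at 5 nM (−0.51, −0.46, −0.39 and −0.42 in that order). They also fell there with the trend in gene span removed (−0.43, −0.40, −0.27 and −0.32). At 50 nM HNRNPK (−0.26) and HNRNPU (−0.43) fell with the centring, and HNRNPA2B1 and HNRNPL did not pass.

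Set directly against each other, 50 nM differed from 5 nM in 24 of the 41 genes: 11 were higher and 13 lower at 50 nM (21.6% and 23.1% of all genes), with 3 higher and 5 lower by over 2-fold at an adjusted p under 0.01 (4.33% and 6.65% of all genes). In the fit of the 11042 brighter genes 31.9% were higher and 34.6% lower at an adjusted p under 0.05. All 4 CLKs, RSRP1, SRSF4 to SRSF7, and HNRNPA0, HNRNPA1, HNRNPAB and HNRNPF were lower at the higher dose. Both SRPKs, SRSF1, SRSF10 and 7 hnRNPs were higher. With ribosomal protein centring 20 were higher and 13 lower at 50 nM (28.8% and 19.3% of all genes). With the trend in gene span removed, as described further on, SRSF7 and HNRNPAB did not pass in this comparison (−0.13, adjusted p = 0.22, and −0.10, adjusted p = 0.29).

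Each of the 4 arrays of a comparison was also left out in turn, which leaves 1 group with a single array. A call can then be lost through lower precision as well as through a change in size. SRSF11 at 50 nM, for example, changed by −0.21, −0.17, −0.21 and −0.17 in these fits, against −0.19 with all arrays. Calls of small changes differed as follows. At 5 nM the rises of SRSF5 (0.074 without DMSO replicate 1 and 0.065 without 5 nM replicate 2, as adjusted p) and HNRNPAB (0.13 without DMSO replicate 2 and 0.062 without 5 nM replicate 2) missed the threshold, HNRNPAB also turned to −0.12 with ribosomal protein centring, and SRSF9 passed in these fits only without 5 nM replicate 1, and not with the replicate block (adjusted p = 0.056). SRSF4 passed at 5 nM only without DMSO replicate 1 (−0.37, adjusted p = 0.012). At 50 nM SRSF11 passed with none of the 4 arrays left out, SRSF5 only without 50 nM replicate 2 and SRSF7 only without DMSO replicate 2, and SRSF2 missed the threshold without DMSO replicate 2 (adjusted p = 0.078) or 50 nM replicate 2 (adjusted p = 0.066). HNRNPH3 passed at 50 nM only without DMSO replicate 1 (−0.61, adjusted p = 0.0022), and HNRNPA1 only without DMSO replicate 2 (−0.44, adjusted p = 0.031) or 50 nM replicate 2 (−0.42, adjusted p = 0.038). In the direct comparison HNRNPUL1 missed the threshold without 5 nM replicate 1, and SRSF10 passed only without 50 nM replicate 2. HNRNPA3P1, a pseudogene whose DMSO arrays set its sign at 50 nM, changed by −0.50 without DMSO replicate 1 and by 0.48 without DMSO replicate 2.

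FLI1 shRNA gave a narrower picture: 0 of the 41 genes rose, 15 fell and 26 did not pass, with log2 changes of −0.57 to 0.10 against lacZ shRNA, and 0 reached an unadjusted p under 0.05 on the higher side. Over all genes 14.6% rose and 9.28% fell. In the fit of the 11042 brighter genes 24.1% rose and 15.3% fell. The median of the 41 was −0.15, against −0.005 over all genes, and 0 genes changed over 2-fold (1.21% of all genes higher and 0.598% lower). The falls lay in SR genes (9 of 14, median −0.31) and hnRNPs (6 of 20, median −0.12), while 0 of 4 CLKs, 0 of 2 SRPKs and RSRP1 passed.

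SRSF7, an SR protein with a zinc knuckle, fell furthest on the probe sets used. It read 9.72 and 9.72 after FLI1 shRNA, against 10.34 and 10.25 after lacZ shRNA, a fall to 67.2% (−0.57 ± 0.08, adjusted p = 5.8e-04). SRSF2 read 10.64 and 10.79 after FLI1 shRNA, against 11.19 and 11.22 (−0.49 ± 0.07, adjusted p = 7.8e-04). SRSF12 read 8.08 and 8.17, against 8.58 and 8.55 (−0.44 ± 0.08, adjusted p = 0.0027). In all 3 genes both FLI1 shRNA arrays lay below both lacZ arrays. SRSF5, SRSF10 and SRSF3 each fell by 0.35, SRSF1 by 0.33, SRSF6 by 0.30 and TRA2B by 0.27. The second, dimmer SRSF10 probe set changed by −0.8 ± 0.15 (adjusted p = 0.0098, over all array rows). The mean over both SRSF10 probe sets gave −0.57 (adjusted p = 0.0012). SRSF4 changed by −0.23 ± 0.10 (adjusted p = 0.14), and SRSF8, SRSF9, SRSF11 and TRA2A by at most 0.10 in size.

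Among hnRNPs, HNRNPAB, a factor that also binds single-stranded DNA, read 11.88 and 11.89 after FLI1 shRNA, against 12.35 and 12.32 after lacZ shRNA (−0.45 ± 0.07, adjusted p = 0.0011). HNRNPD read 11.42 and 11.43, against 11.75 and 11.75 (−0.32 ± 0.07, adjusted p = 0.0067), and HNRNPF read 9.86 and 9.83, against 10.18 and 10.13 (−0.31 ± 0.06, adjusted p = 0.0047). HNRNPU, a scaffold protein of the nucleus, fell by 0.26, HNRNPA0 by 0.25 and HNRNPA1 by 0.42 (SE 0.13, adjusted p = 0.043, and 0.054 with the replicate block). CLK1 read 8.84 and 8.97 after FLI1 shRNA, against 9.08 and 8.87 after lacZ shRNA, and RSRP1 7.53 and 7.6, against 7.69 and 7.58 (adjusted p = 0.67 and 0.74). SRPK2 changed by −0.19 ± 0.08 (adjusted p = 0.12) and SRPK1 by −0.13 ± 0.08 (adjusted p = 0.26).

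Fewer than 15 genes fell with any 1 of the 4 arrays left out, and the share over all genes was lower as well. Each such fit leaves 1 group with a single array. A call can then be lost through lower precision as well as through a change in size. SRSF7, SRSF2, SRSF12, HNRNPAB and HNRNPF passed each time, whereas SRSF1, SRSF6, HNRNPA0, HNRNPA1 and HNRNPU passed in none of the 4, and SRSF3, SRSF5, SRSF10, TRA2B and HNRNPD missed the threshold in 1 to 3 of them. Puromycin selection and lentiviral infection were shared by both shRNA groups and by none of the drug groups, and no test sets a drug change against a knock-down change.

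**Figure D3:**
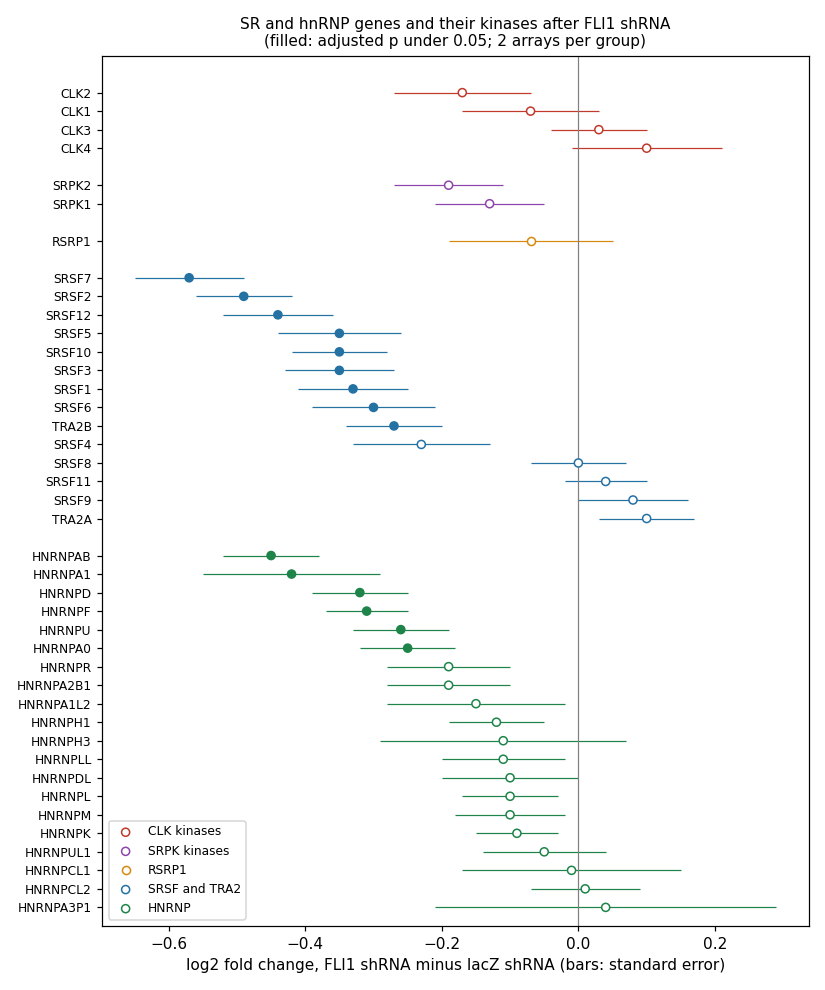
Log2 change of each of the 41 genes after FLI1 shRNA against lacZ shRNA, with standard errors, grouped by gene class and ordered by change. Filled points have an adjusted p under 0.05. The 15 filled points all lie left of 0 and belong to SR and hnRNP genes.

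The ETS core CCGGAAG, the kind of site that FLI1 binds, or its reverse complement CTTCCGG stood in 5 of 37 promoter windows of the set (HNRNPD, HNRNPF, HNRNPLL, SRSF4 and SRSF5) and in 10.2% of 27305 genes. HNRNPD, HNRNPF and SRSF5 are among the genes that fell after FLI1 shRNA, and HNRNPLL and SRSF4 are not. The repeat GGAAGGAA, a pair of GGAA units of the kind the fusion binds in longer arrays, stood in the windows of SRSF1 and SRSF7, which fell, and in 3.8% of genes. The windows of HNRNPD (chr4:82373992-82374241) and HNRNPF (chr10:43408858-43409107), both on the minus strand of GRCh38.p14, are shown because both genes hold the core and fell. Capitals mark the ETS core CTTCCGG and the GC box. Binding was not measured at these promoters in the data used here.
HNRNPD: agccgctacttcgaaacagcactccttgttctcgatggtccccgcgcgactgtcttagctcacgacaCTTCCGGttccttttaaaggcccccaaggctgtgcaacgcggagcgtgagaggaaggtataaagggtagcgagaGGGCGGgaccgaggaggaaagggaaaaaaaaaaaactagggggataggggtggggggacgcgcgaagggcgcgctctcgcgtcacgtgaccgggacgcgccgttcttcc
HNRNPF: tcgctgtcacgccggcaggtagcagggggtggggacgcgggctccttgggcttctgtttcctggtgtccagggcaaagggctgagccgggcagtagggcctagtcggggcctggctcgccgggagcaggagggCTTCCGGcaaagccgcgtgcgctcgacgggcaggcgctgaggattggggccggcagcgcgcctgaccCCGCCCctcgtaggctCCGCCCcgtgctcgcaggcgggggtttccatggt

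The ETS core begins 183 bases before the start in HNRNPD and 117 bases before it in HNRNPF. RefSeq lists 2 windows for HNRNPF, and the one shown lies before a start that is 329 bases inside the outer end of the gene, so this window and its core lie within the annotated gene. A match of letters is a description and not a bound site.

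The genes of the set are short. The median span of the 40 protein-coding members in RefSeq was 16.0 kb, against 27.3 kb over 16894 protein-coding genes, and 31 of the 40 were below that median. At 5 nM shorter genes stood higher over the whole array: the median change of all genes by quintile of span, shortest first, was 0.26, 0.25, 0.13, −0.07 and −0.46, and Spearman's rho of change with span was −0.52. Within the set it was −0.37 (40 genes of the same arrays, given as a description), and the medians of the members in the first 4 quintiles were 0.12, −0.08, −0.14 and −0.51. The last quintile held SRPK2 (284.6 kb), with the largest fall, and RSRP1 (96.0 kb with the overlap of RHD), with the largest rise. HNRNPDL, at 7.9 kb, fell furthest among short genes. At 50 nM rho was −0.07 in the set and −0.29 over all genes. After removal of the trend in span, 6 of the 40 rose and 24 fell at 5 nM (28.1% and 25.6% of all genes), and the change was 1.08 for CLK1, −1.39 for SRPK2, −0.84 for SRPK1, −1.93 for HNRNPDL and 3.32 for RSRP1, all still past the test, and 0.21 for CLK2 and for CLK4, neither passing. SRSF5, SRSF9, SRSF11 and HNRNPAB also missed the threshold then, at −0.03, −0.11, −0.15 and −0.10. At 50 nM so did SRSF9, SRSF11 and HNRNPA0, at 0.17, −0.05 and 0.07.

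Other splicing genes were counted from lists that hold none of the 41. The counts and changes of these lists, here and below, take no account of gene span, signal level or ribosomal protein centring. Over all genes 30.3% rose and 23.0% fell at 5 nM, and 25.8% rose and 23.3% fell at 50 nM. Of 55 core spliceosome genes measured, 19 rose and 14 fell at 5 nM (34.5% and 25.5%, median 0.07). At 50 nM 14 of them rose and 14 fell (25.5% and 25.5%, median 0.03), near the shares of all genes. The helicases AQR and DHX15 fell at 5 nM by 1.21 and 1.05 and SF3B4, part of the branch-site complex SF3b, rose by 0.99. At 50 nM the tri-snRNP proteins PRPF4 and PRPF3 fell by 1.15 and 0.72, and the Sm protein SNRPG by 0.80. Of 31 SR-related proteins and coactivators, 6 rose and 12 fell at 5 nM (19.4% and 38.7%, median −0.15). At 50 nM 0 of them rose and 20 fell (0.0% and 64.5%, median −0.47). RBM39, a coactivator close to U2AF, fell by 1.18 at 5 nM, CDK12, a kinase of RNA polymerase II, by 1.04, and CCNL1, a cyclin of speckles, rose by 1.04. At 50 nM SCAF8 and SCAF4, which bind the tail of RNA polymerase II, changed by −1.51 and −1.5 and the kinase CDK13 by −1.44.

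Of 46 other RNA-binding regulators of splicing measured, 5 rose and 28 fell at 5 nM (10.9% and 60.9%, median −0.34). At 50 nM 10 of them rose and 14 fell (21.7% and 30.4%, median −0.05). In the direct comparison 25 of them were higher and 7 lower at 50 nM (54.3% and 15.2%, beside 21.6% and 23.1% of all genes). MBNL1, the factor sequestered in myotonic dystrophy, changed by −1.64 at 5 nM, the neuronal regulator NOVA1 by −1.54 and the myelination factor QKI by −1.44, all past the test. At 50 nM RBM5 changed by −1.68, NOVA1 by −0.88 and the helicase DDX17 by −0.78, also past it. Of 13 other kinases and phosphatases of SR proteins, 5 rose and 5 fell at 5 nM (38.5% and 38.5%). At 50 nM 2 of them rose and 4 fell (15.4% and 30.8%). DYRK1A, a kinase related to the CLKs, changed by −1.64 at 5 nM and −2.13 at 50 nM, while AKT2 fell by 1.01 and DYRK2 rose by 1.00 at 5 nM. At 50 nM the phosphatase subunit PPP2CA fell by 0.63 and DYRK3, which dissolves speckles during mitosis, by 0.53. After FLI1 shRNA 1 core spliceosome gene rose and 7 fell (1.8% and 12.7%), and 0 SR-related genes rose and 7 fell (0.0% and 22.6%). Of the other regulators 2 rose and 11 fell (4.3% and 23.9%), and 2 kinases or phosphatases rose and 0 fell (15.4% and 0.0%). The shares over all genes were 14.6% and 9.28%.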

How the data were processed

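RNA of A673 cells was hybridized to Affymetrix Gene ST 1.0 arrays, 12 in all. The authors used RMA in affy for background correction and normalization (version not given in the sources used here) and deposited log2 signals, which were used unchanged. Depth does not apply to arrays, and 2 arrays per group limit the precision. Whether arrays of a group came from separate cultures is not stated, so p-values measure only the spread between arrays, which may be technical. Of 32321 rows, 19158 had a single symbol, 1388 had several and 11775 none, and the single-symbol rows gave 18404 genes, each tested on the row with its highest mean. All single-symbol members kept their symbols.

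Comparisons used R 4.3.3 and limma 3.58.1, with a mean per group over all 12 arrays, eBayes (6 residual and 4.45 prior degrees of freedom) and Benjamini-Hochberg adjustment over 18404 genes. Groups came from the labels. The fit was tested on simulated data. No filter on dim genes was applied in the main fit.

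Members and lists were chosen with earlier results of these data known. Named genes were the kinases, TRA2A, TRA2B and RSRP1, the 5 SRSF and 5 HNRNP genes with the largest passing changes in each comparison, and up to 3 genes of each further list at 5 nM and at 50 nM. SRSF2, SRSF7, SRSF11, HNRNPR, HNRNPM, HNRNPUL1, HNRNPH3 and others beyond that rule were named after their values were seen. Spans and promoters come from RefSeq on GRCh38.p14, whose promoter table matched 37 of 41 members. Motifs were sought on both strands of 250 bases upstream. Protein sequences were not analysed here.

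Alternatives were a replicate block, only the arrays of the comparison, genes below the 40th percentile of mean level dropped, the mean over probe sets, all rows, a further quantile normalization, ribosomal protein centring, a trended and robust eBayes, each array left out, and removal of the trend in span. Crossed replicate numbers and second probe sets were added after the values were seen.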

Additional observations from a re-analysis of the deposited data

How the results depend on the processing

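With centring on 58 ribosomal protein genes, 5 genes rose and 29 fell at 5 nM (9.02% and 45.1% of all genes), 1 rose and 29 fell at 50 nM (5.24% and 38.4%), and 20 were higher at 50 nM than at 5 nM (28.8%). With the span trend removed (40 genes), 6 rose and 24 fell at 5 nM (28.1% and 25.6%), and 21 were higher at 50 nM than at 5 nM (32.2%). The centring turned the 5 nM changes of CLK3 to −0.21 and of CLK4 to −0.00, and the 50 nM changes of HNRNPA0 to −0.09 and of HNRNPH1 to −0.00. The mean over probe sets turned the 5 nM change of TRA2A to 0.76, and the cause lies in its second probe set. With each array left out in turn, 8 to 10 genes rose and 15 to 18 fell at 5 nM, 1 to 3 rose and 15 to 17 fell at 50 nM, 10 to 12 were higher and 13 lower in 50 nM against 5 nM, and 6 to 9 fell after FLI1 shRNA. The low end for rises at 50 nM was 1 without 50 nM replicate 2 and 2 without DMSO replicate 1. Other settings kept every count of genes that rose or fell within 1.5 times that of the fit of all 12 arrays. The cause of the remaining shifts was not tested.

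Same-numbered arrays deviated together at correlations of 0.17 or less (−0.17 for the shRNA groups and −0.26 for DMSO and untreated). Such values, from few arrays per group, cannot decide whether arrays of different groups shared a batch or culture day. The labels give only a number. With the replicate number as a block, 10 genes rose and 15 fell at 5 nM (29.7% and 22.8% of all genes), and 3 rose and 18 fell at 50 nM (25% and 23.1%). In that fit 11 were higher and 13 lower in 50 nM against 5 nM (21.3% and 22.9%), and 14 fell after FLI1 shRNA (8.88%). Crossing the numbers, a pairing chosen after seeing the data, gave 14 falls after FLI1 shRNA (9.24% of all genes). It gave 0 changes between DMSO and untreated cells (0.00543% of all genes higher and 0 lower). RMA values hold relative levels, and dim probe sets such as those of HNRNPCL1 and HNRNPCL2 limit what can be detected.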
